A study of Homo sapiens with 4 samples.

Results

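The glycolysis and hypoxia response genes described here are 40 genes of glucose breakdown and of the cellular answer to low oxygen, taken as the rows whose gene symbol stands in a fixed list of member names. All 40 were found among the 57905 genes of the table, and all 40 passed a filter of at least 1 CPM (counts scaled to a common library size) on average over the libraries, as did 13966 genes in all. Of the members, 25 belong to glycolysis and 15 to the hypoxia response. Poly(A) RNA was sequenced from 4 stable lines of A549, a human lung adenocarcinoma cell line, with 1 library a condition. The line called DCBLD2 overexpression had received a lentivirus with the coding sequence of DCBLD2, a transmembrane receptor-like protein, under an EF1 promoter with blasticidin resistance, and the empty vector line the same vector without it. The shDCBLD2 line carried a short hairpin RNA against DCBLD2 from an H1 promoter in a vector with puromycin resistance, and the sc line a scramble control. Which of the hairpins the sequenced line carried was not stated. The virus was packaged in a human embryonic kidney line.

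Cells take up glucose through transporters of the SLC2A family and split it into pyruvate, which is either reduced to lactate or passed to the mitochondria. When oxygen is scarce, prolyl hydroxylases of the EGLN family stop marking the transcription factor HIF1A for destruction, and HIF1A then switches on transporters, glycolytic enzymes, carbonic anhydrases and secreted factors such as VEGFA. Lung adenocarcinoma cells in culture use glycolysis heavily even with oxygen present, and HIF1A is controlled mainly as a protein, so its RNA level does not give its activity.

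The libraries held 19104052 (sc), 21537283 (shDCBLD2), 18718562 (empty vector) and 16601633 counts (DCBLD2 overexpression). DCBLD2 itself, which checks the labels, had 9859 counts in sc, 4259 in shDCBLD2, 7970 in the empty vector library and 4000 in the library of the line called DCBLD2 overexpression, from here on the library labelled overexpression. Its log2 ratio was -1.35 (95% interval -1.40 to -1.30) in shDCBLD2 against sc, and -0.84 (-0.90 to -0.79) in the library labelled overexpression against the empty vector. The second value goes against the label, so every direction given for that library is that of a library in which DCBLD2 RNA was lower, not higher, than in its control. With 1 library a condition there is no replicate check and no test. Each ratio compares libraries, not conditions, and intervals cover counting error only.

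The library labelled overexpression also stood apart from the others in its gene content. In it 66 genes had at least 50 counts with at most 3 in each other library, against 0 such genes in sc, shDCBLD2 and the empty vector library. All 5 epithelial markers (EPCAM, KRT8, KRT18, KRT19, CDH1) were above 3 counts in each library, with summed levels of 13500 CPM in sc, 7635 in shDCBLD2, 9566 in the empty vector library and 14700 in the library labelled overexpression, and KRT8 the most counted. The alveolar type 2 markers summed to at most 1.58 CPM, with SFTPA1 at 0 counts in all 4 libraries and NKX2-1 at 0 in all but the library labelled overexpression, where it had 7. Summed fibroblast markers were 34.2 CPM in sc, 55.3 in shDCBLD2, 36.3 in the empty vector library and 72.2 in the library labelled overexpression, with COL1A1 the most counted. COL1A1 had 639, 1165, 652 and 1041 counts in this order, COL1A2 17, 1, 0 and 67, COL3A1 9, 18, 6 and 68, and PDGFRA 5, 9, 9 and 11. The fibroblast markers DCN and LUM were at 0 in the first 3 of these libraries and at 4 and 1 counts in the last. Markers of the embryonic kidney line used for packaging summed to 39.2, 50.02, 39.1 and 54.7 CPM in the same order, and they did not move together. NEFM had 1, 4, 0 and 221 counts, NEFL 69, 179, 105 and 322, PAX2 14, 4, 35 and 55 and LIN28B 25, 25, 27 and 78, while INA, the most counted in all but the library labelled overexpression, had 658, 867, 550 and 227. Blood markers reached at most 0.909 CPM in sum, with PTPRC at 0 in each library, and 2 endothelial markers reached at most 0.102 CPM, with VWF at 0 in each. The part of these differences in the results below was not tested.

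Measured per length, glycolytic enzymes were the most abundant members. The deposited FPKM (counts scaled for library size and gene length) of GAPDH, which oxidizes glyceraldehyde 3-phosphate, was 2842 in sc, 2641 in shDCBLD2, 2497 in the empty vector library and 2337 in the library labelled overexpression, the highest of the 40 in each. PDK1, a kinase that switches off pyruvate dehydrogenase, was the lowest in 3 libraries, at 0.44, 0.40 and 0.51 FPKM in sc, the empty vector library and the library labelled overexpression. In shDCBLD2 the lowest was the aldolase ALDOC at 0.46 FPKM, below PDK1 at 0.56. The median member stood at 17.6, 16.0, 15.9 and 21.6 FPKM in the order sc, shDCBLD2, empty vector and the library labelled overexpression, an order kept for all values listed by library from here on. The 25 glycolysis members took 3.04%, 3.16%, 2.74% and 2.75% of all counts, and the 15 hypoxia response members 0.144%, 0.103%, 0.121% and 0.155%. Of the 27534, 22142, 22632 and 25693 counts of the hypoxia response members, the carbonic anhydrase CA12 alone gave 12777, 5758, 8670 and 13100. Their share thus followed this gene, and no common move of the members can be read from it.

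**Figure D1:**
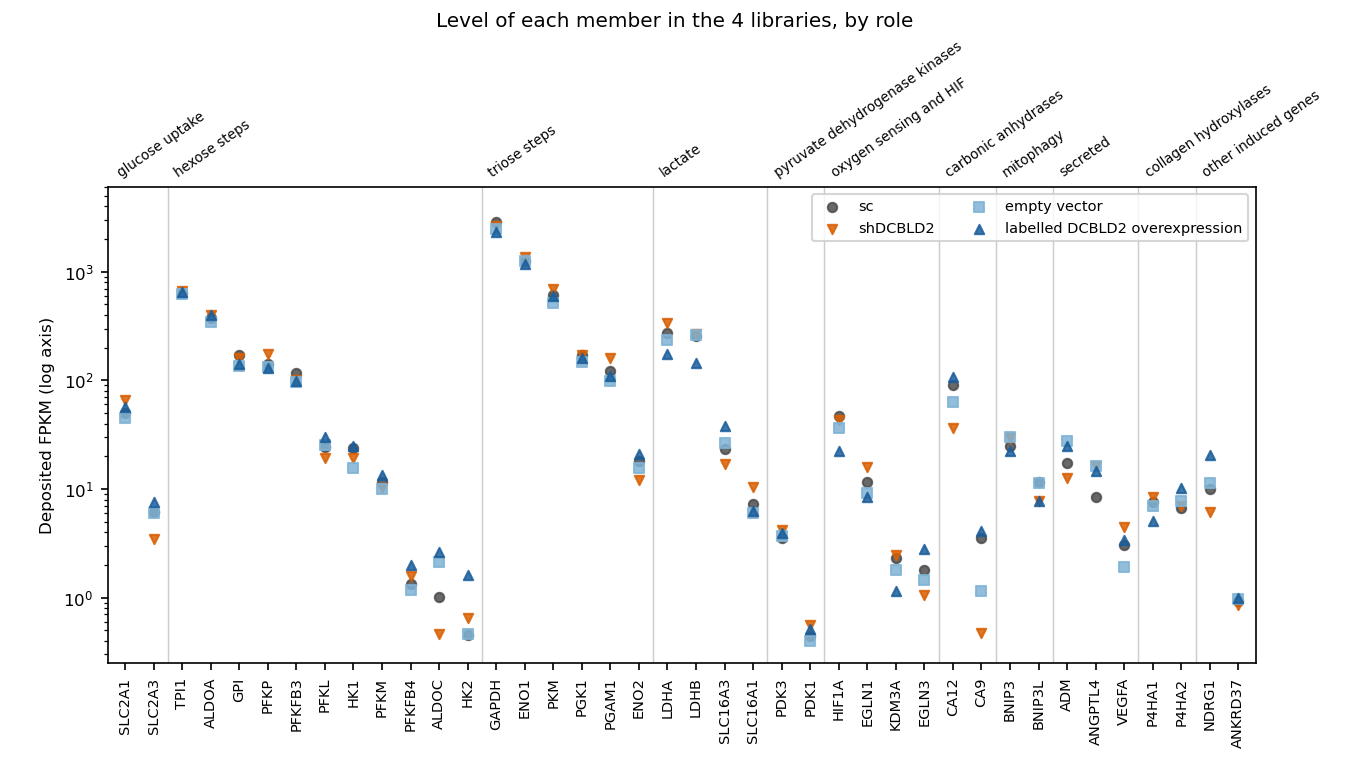
Deposited FPKM of the 40 members (log axis) in the 4 libraries, 1 point a library, grouped by role. GAPDH and ENO1 lead in every library, and the points of CA9, ALDOC, HK2 and NDRG1 lie farthest apart.

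The first comparison asked what differed between the library labelled overexpression and the empty vector library. Called genes are those at least 2-fold apart with an interval that excluded no change. Of the members, 2 were called higher, the glucose-trapping enzyme HK2 and the carbonic anhydrase CA9, and 0 were called lower, where 6.39% of the 13966 genes were called higher and 5.29% lower. At 1.5-fold, 8 members were higher (HK1, HK2, PFKFB4, CA9, CA12, NDRG1, EGLN3, VEGFA) beside 12.8% of all genes, and 3 were lower (LDHB, HIF1A, KDM3A) beside 17.8%. The median log2 ratio was 0.12 over the members, 0.19 over the glycolysis members and -0.16 over the hypoxia response members, against -0.04 over all genes tested. With sc as the control instead, the hypoxia response median was 0.18, so its sign rested on which control library was used, and the glycolysis median was 0.09. Of the 40 members, 7 changed the sign of their ratio with that control: GPI, PFKFB3, PGK1, PGAM1, SLC16A1, ADM and ANGPTL4.

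The second comparison set shDCBLD2 against sc. Here 0 members were called higher at 2-fold, where 1.17% of all genes were, and 3 were called lower, CA9, CA12 and ALDOC, where 5.65% of all genes were. At 1.5-fold 1 member was higher, the secreted lipase inhibitor ANGPTL4, beside 4.94% of all genes, and 6 were lower, CA9, CA12, ALDOC, SLC2A3, NDRG1 and EGLN3, beside 11.6%. The median log2 ratio was 0.08 over the members, 0.09 over the glycolysis members and -0.09 over the hypoxia response members, against 0.01 over all genes. With the empty vector library as control, 9 members changed sign: HIF1A, HK1, GPI, PFKFB3, GAPDH, LDHB, BNIP3, P4HA2 and ANGPTL4.

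The control lines were compared as a yardstick, since their vectors and selection drugs differ and they are not replicates. Between the empty vector and sc libraries 1 member, ALDOC, was called higher and 1, CA9, lower, beside 2.21% and 1.89% of all genes. At 1.5-fold 3 members were higher, ALDOC, ADM and ANGPTL4, and 2 lower, CA9 and VEGFA, beside 7.07% and 6.67%. So CA9, ALDOC, VEGFA and ANGPTL4, each past 1.5-fold in the first or second comparison, were also past 1.5-fold between the control libraries. This comparison of controls shares a control library with each of the others, while the first and second share none.

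**Figure D2:**
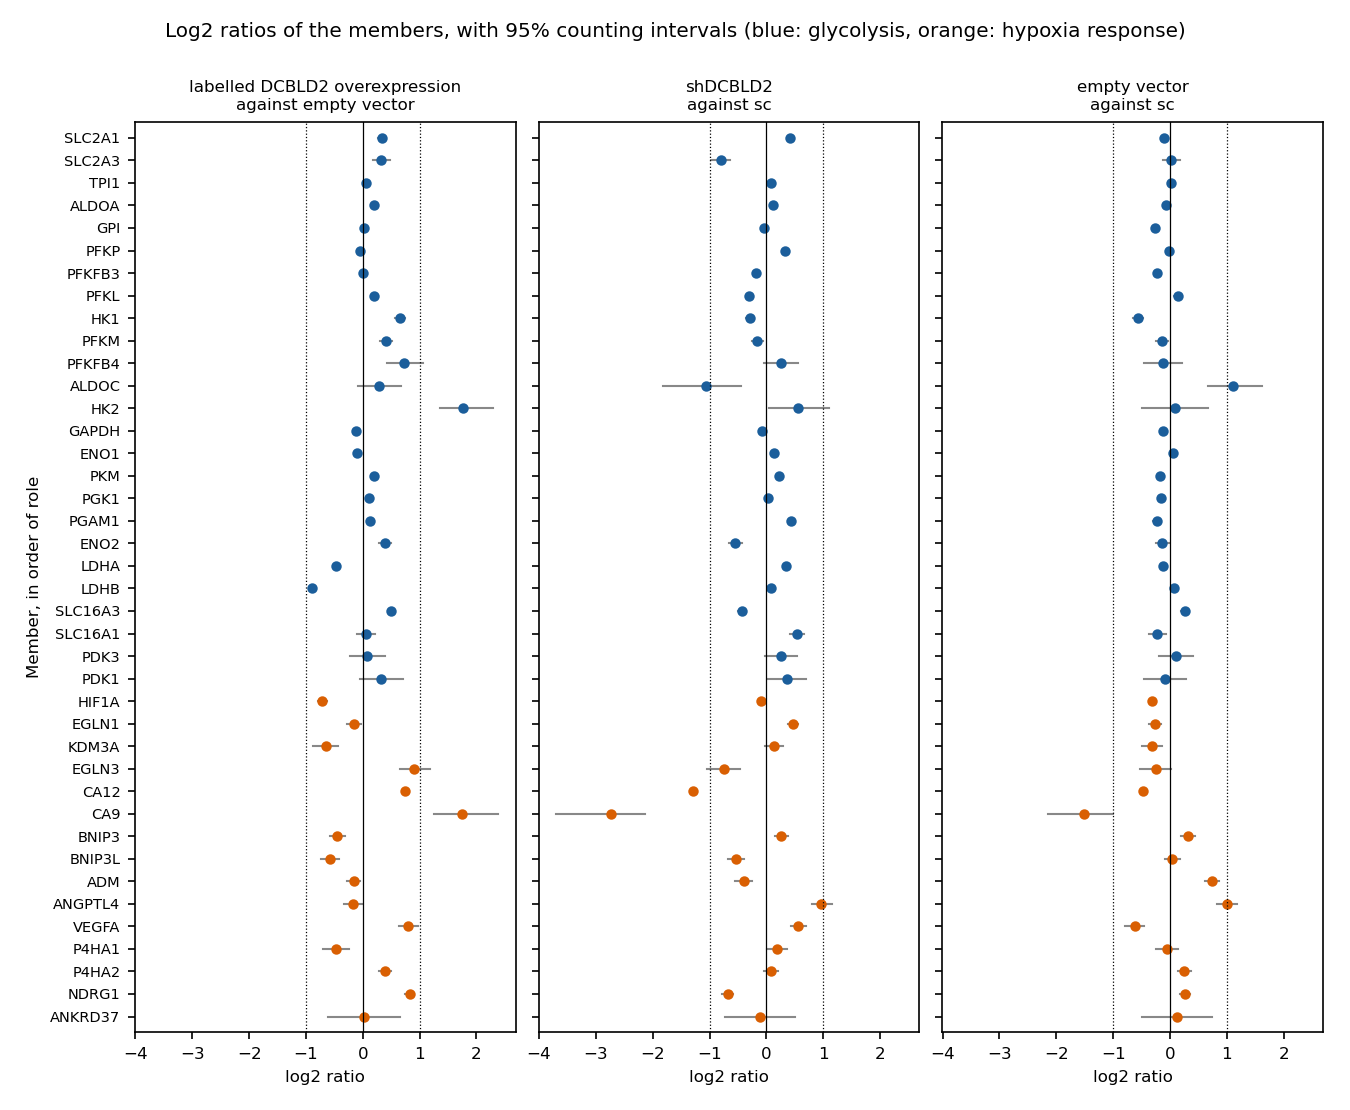
Log2 ratios of the 40 members (points) with 95% counting intervals (lines) in the 3 comparisons, in order of role, with dotted lines at 2-fold. Most glycolysis members lie near 0, and CA9 lies farthest from 0 in the second and last comparisons.

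Glucose enters through SLC2A1, the basal transporter, and SLC2A3, a transporter of high affinity. SLC2A1 was at 206, 274, 192 and 242 CPM, scaled for library size, with log2 ratios of 0.33 (0.27 to 0.40) in the library labelled overexpression against the empty vector and 0.41 (0.36 to 0.47) in shDCBLD2 against sc. SLC2A3 was at 37.0, 21.1, 37.5 and 47.1 CPM. It was thus lowest in shDCBLD2, with a log2 ratio of -0.80 (-0.98 to -0.63), and close in both control libraries, 0.02 (-0.13 to 0.17). Of the summed level of both genes per length, SLC2A3 made up 10.9%, 5.0%, 11.8% and 11.7%.

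Hexokinases trap glucose as its phosphate. HK2, the inducible form, had 52, 85, 52 and 164 counts, or 2.66, 3.94, 2.83 and 9.94 CPM. Both control libraries were alike and the library labelled overexpression was the highest, with a log2 ratio of 1.77 (1.35 to 2.29) against the empty vector and 1.86 (1.44 to 2.38) against sc. In shDCBLD2 the log2 ratio of HK2 was 0.55 (0.05 to 1.09), and against the empty vector it was 0.46 (-0.04 to 1.00), an interval that spanned 0. The housekeeping form HK1 was at 143, 118, 97.4 and 153 CPM, with log2 ratios of 0.65 (0.57 to 0.74) and -0.29 (-0.37 to -0.21) in the first and second comparisons, but 0.09 when sc was the control of the first and 0.27 (0.18 to 0.36) when the empty vector was that of the second. HK2 was the minor form of the pair in each library, at 1.85%, 3.30%, 2.87% and 6.19% of the summed level of HK1 and HK2 per length.

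GPI, which turns glucose 6-phosphate into fructose 6-phosphate, had log2 ratios of 0.03 and -0.04 in the first and second comparisons. The phosphofructokinases commit sugar to glycolysis, and PFKP made up 79.8%, 85.6%, 79.0% and 75.1% of their summed FPKM, with PFKL and PFKM the rest. Log2 ratios in the first and second comparisons were -0.06 and 0.33 for PFKP, 0.20 and -0.30 for PFKL, and 0.41 and -0.16 for PFKM. PFKFB3 and PFKFB4 make fructose 2,6-bisphosphate, the activator of phosphofructokinase. PFKFB3 had log2 ratios of 0.00 and -0.19, and PFKFB4, at 8.08, 9.64, 7.41 and 12.4 CPM, 0.73 (0.42 to 1.06) and 0.25 (-0.05 to 0.56). ALDOA, the main aldolase, had log2 ratios of 0.20 and 0.12, and TPI1, which interconverts the trioses, 0.06 and 0.09.

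ALDOC, an aldolase best known from brain, was a weakly counted member, with 57, 29, 117 and 129 counts. Both libraries of the overexpression vector pair were high and shDCBLD2 was lowest. Its log2 ratio was 0.29 (-0.08 to 0.67) in the first comparison, -1.06 (-1.81 to -0.45) in the second and 1.10 (0.66 to 1.61) between the controls. The control libraries were thus about as far apart as shDCBLD2 and sc, and with the other control the first and second values were 1.39 (0.96 to 1.90) and -2.16 (-2.88 to -1.65). ALDOC was 0.270%, 0.114%, 0.618% and 0.661% of the summed level of ALDOC and ALDOA per length.

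None of the 6 members of the triose steps reached 1.5-fold in any of the 3 comparisons. GAPDH was at 8255, 7844, 7575 and 6991 CPM, with log2 ratios of -0.12 and -0.07 in the first and second comparisons. The kinase PGK1, the first to make ATP in the pathway, had 0.11 and 0.04, the mutase PGAM1 0.13 and 0.43, and the pyruvate kinase PKM 0.19 and 0.23. With the other control library PGAM1 had -0.10 and 0.67 (0.61 to 0.72), and the value in shDCBLD2 was then past 1.5-fold. Enolase makes phosphoenolpyruvate. ENO1 had log2 ratios of -0.10 and 0.13, and ENO2, the neuronal form, 0.39 (0.28 to 0.50) and -0.55 (-0.66 to -0.44). ENO2 was 1.41%, 0.881%, 1.24% and 1.74% of the summed level of both enolases per length.

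Lactate dehydrogenases interconvert pyruvate and lactate. LDHA was at 1640, 2088, 1502 and 1086 CPM, highest in shDCBLD2 and lowest in the library labelled overexpression, with log2 ratios of -0.47 (-0.50 to -0.44) and 0.35 (0.33 to 0.37) in the first and second comparisons. LDHB was at 753, 792, 794 and 430 CPM. Its log2 ratio of -0.89 (-0.93 to -0.84) in the library labelled overexpression was the lowest of the members there, while shDCBLD2 was near sc at 0.07 (0.04 to 0.10). The monocarboxylate carriers SLC16A1 and SLC16A3 move lactate across the membrane. SLC16A3 was at 204, 152, 245 and 344 CPM, with log2 ratios of 0.49 (0.44 to 0.55) and -0.43 (-0.49 to -0.36), and SLC16A1, at 45.7, 66.7, 39.2 and 40.7 CPM, had 0.05 (-0.10 to 0.21) and 0.54 (0.42 to 0.67). SLC16A1 was therefore 23.8%, 38.0%, 18.3% and 14.2% of the summed level of both carriers per length. Of the pyruvate dehydrogenase kinases among the members, PDK1 was at 6.54, 8.39, 6.16 and 7.69 CPM, with log2 ratios of 0.32 (-0.06 to 0.70) and 0.35 (0.02 to 0.70), and PDK3 had 0.08 (-0.22 to 0.39) and 0.25 (-0.03 to 0.54).

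Among the genes of oxygen sensing, HIF1A RNA was at 235, 221, 189 and 115 CPM. It was lowest in the library labelled overexpression, with a log2 ratio of -0.71 (-0.80 to -0.63) against the empty vector and -1.03 (-1.11 to -0.95) against sc, and near its control in shDCBLD2, -0.09 (-0.15 to -0.03). KDM3A, a histone demethylase that HIF induces, was at 30.6, 33.4, 24.6 and 15.6 CPM, with log2 ratios of -0.65 (-0.88 to -0.43) and 0.13 (-0.03 to 0.29) in the first and second comparisons. The hydroxylases went separate ways. EGLN1, the main oxygen sensor, had -0.16 (-0.28 to -0.04) and 0.47 (0.38 to 0.56), while EGLN3, which HIF induces, had 255, 167, 201 and 341 counts and log2 ratios of 0.91 (0.66 to 1.17) and -0.74 (-1.04 to -0.46). EGLN3 was 13.5%, 6.26%, 13.6% and 24.9% of the summed level of both per length.

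The carbonic anhydrases, which hydrate CO2 and so help to set pH at the cell surface, were both called lower in shDCBLD2. CA9 had 113, 17, 36 and 113 counts, or 5.78, 0.788, 1.96 and 6.85 CPM. The sc library and the library labelled overexpression were high, the empty vector library was low, and shDCBLD2 was lowest. Its log2 ratio was -2.73 (-3.70 to -2.13) in shDCBLD2 against sc and -1.21 (-2.24 to -0.45) against the empty vector. In the library labelled overexpression it was 1.75 (1.25 to 2.39) against the empty vector but 0.24 (-0.14 to 0.63) against sc, so the call of CA9 as higher there rested on the empty vector library. CA12, an abundant relative, was at 653, 267, 472 and 794 CPM and followed the same order of libraries. Its log2 ratios were 0.75 (0.71 to 0.79) in the first comparison, 0.28 (0.25 to 0.32) there with sc as control, -1.29 (-1.34 to -1.25) in the second and -0.82 (-0.87 to -0.78) there with the empty vector as control.

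**Figure D3:**
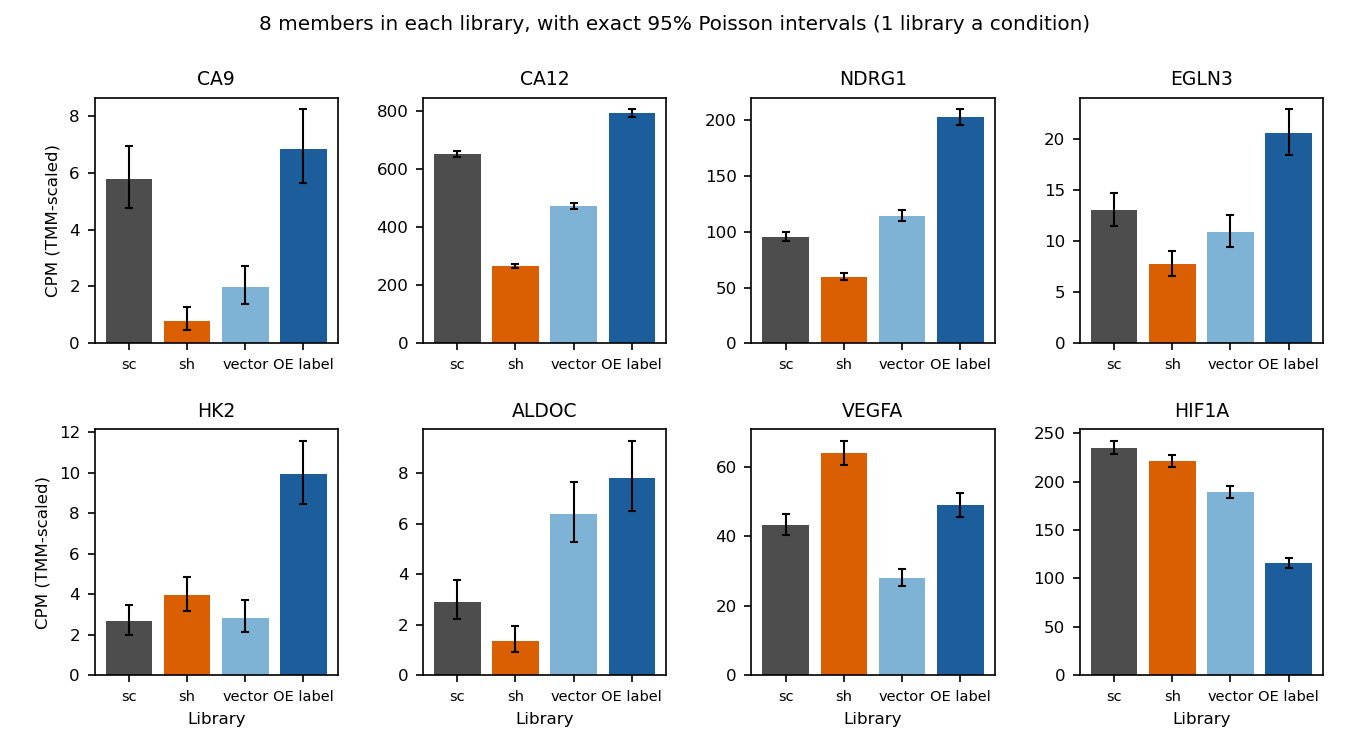
CPM of 8 members in each library (sc, shDCBLD2, empty vector, and OE label for the library labelled overexpression), bars from 0 with exact 95% Poisson intervals. CA9 is at 5.78 CPM in sc and 6.85 in the library labelled overexpression, and at 1.96 with the empty vector.

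At 1.5-fold against each line's own control, 4 members were higher in the library labelled overexpression and lower in shDCBLD2, beside 4.53% of all genes, and 0 had the reverse pattern, beside 1.59%. The 4 were CA9, CA12, EGLN3 and NDRG1, all of the hypoxia response. NDRG1, a stress-induced protein named here after its values were seen, was at 95.8, 59.6, 115 and 203 CPM, with log2 ratios of 0.83 (0.75 to 0.91) and -0.68 (-0.79 to -0.58). Of the 4, EGLN3 and NDRG1 were still past 1.5-fold in the library labelled overexpression with sc as control, at 0.66 (0.43 to 0.90) and 1.08 (1.00 to 1.17), and CA9 and CA12 were not. In shDCBLD2 with the empty vector library as control, CA9, CA12 and NDRG1 were past 1.5-fold lower, NDRG1 at -0.94 (-1.04 to -0.84), and EGLN3 was not, at -0.49 (-0.81 to -0.20). Both lines had less DCBLD2 RNA than their controls, so the opposite directions of these members were not matched by opposite directions of DCBLD2 RNA. These data do not measure DCBLD2 protein.

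**Figure D4:**
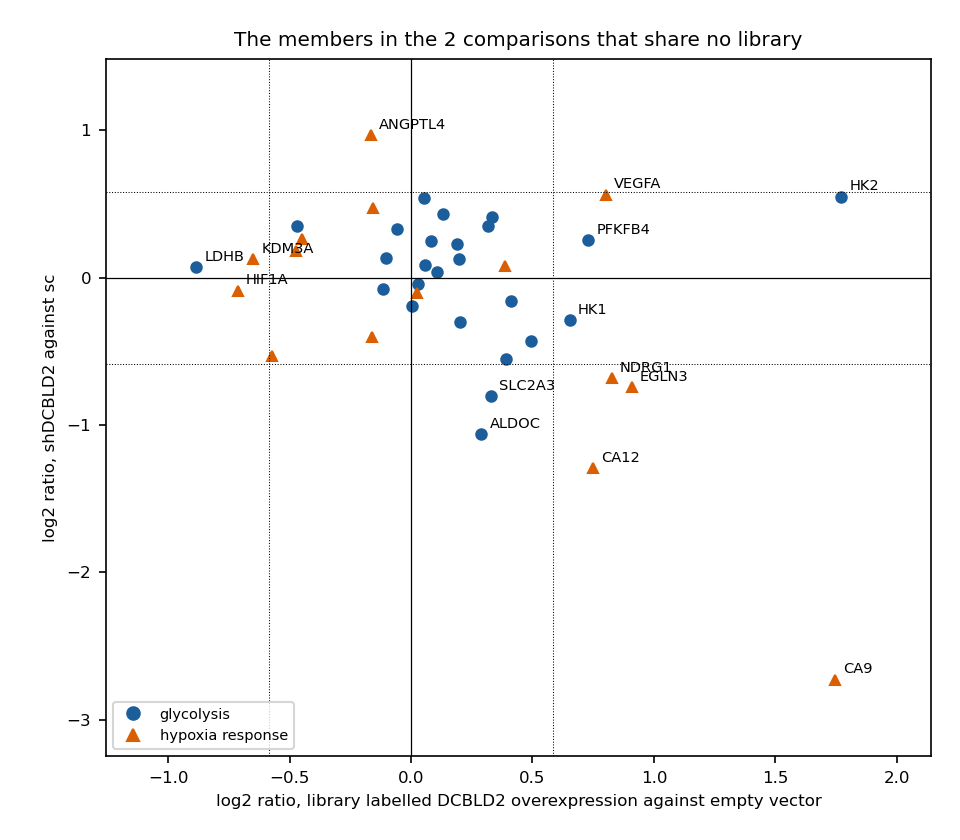
Log2 ratio of each member in the library labelled overexpression against the empty vector (horizontal) and in shDCBLD2 against sc (vertical), with dotted lines at 1.5-fold. CA9, CA12, EGLN3 and NDRG1 lie at the lower right, past the lines of both axes. HK2 and VEGFA lie toward the upper right, but at 0.55 and 0.56 in shDCBLD2 they stay under the 1.5-fold line there.

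The other hypoxia response members showed no common direction. VEGFA, the vascular growth factor, was at 43.3, 64.1, 28.1 and 49.1 CPM, above its control in both lines, with log2 ratios of 0.80 (0.64 to 0.97) and 0.56 (0.44 to 0.69). Against sc, however, the library labelled overexpression gave 0.18 (0.04 to 0.32), and the empty vector library itself lay at -0.62 (-0.79 to -0.47). Against the empty vector shDCBLD2 gave 1.19 (1.04 to 1.34), past 2-fold. ANGPTL4 was at 20.4, 40.01, 40.9 and 36.4 CPM. Here sc was the low library, with log2 ratios of 0.97 (0.80 to 1.15) in shDCBLD2 and 1.00 (0.83 to 1.18) with the empty vector, both just under 2-fold. With the empty vector as control shDCBLD2 gave -0.03 (-0.17 to 0.11), and the library labelled overexpression gave -0.17 (-0.32 to -0.01) against the empty vector and 0.83 (0.65 to 1.02) against sc. ADM, a vasodilator peptide, had log2 ratios of -0.16 (-0.28 to -0.05) in the first and -0.40 (-0.54 to -0.26) in the second comparison. With the other control library these were 0.58 (0.45 to 0.71) and -1.14 (-1.27 to -1.01), so its direction in the library labelled overexpression rested on the control. The mitophagy receptors BNIP3 and BNIP3L mark mitochondria for removal. BNIP3 was at 51.8, 62.1, 64.3 and 47.1 CPM, with log2 ratios of -0.45 (-0.58 to -0.32) and 0.26 (0.14 to 0.38), and BNIP3L had -0.57 (-0.73 to -0.42) and -0.53 (-0.68 to -0.39), so BNIP3L was below its control in both. Of the collagen prolyl hydroxylases, P4HA1 had -0.47 (-0.70 to -0.25) and 0.18 (0.00 to 0.36) and P4HA2 0.39 (0.28 to 0.50) and 0.08 (-0.04 to 0.20), and P4HA2 was 47.2%, 45.4%, 52.5% and 66.8% of their summed level per length. ANKRD37, with 46, 47, 47 and 43 counts, had intervals that spanned 0 in each comparison.

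Some members share their place with other genes, and the strand setting of the counting was not stated, so reads of overlapping genes cannot be told apart. In the table's coordinates 26 members overlapped another entry, and 5 of them overlapped one with more counts. CA9 overlaps ARHGEF39, which had 474, 562, 476 and 337 counts and log2 ratios of -0.34 and 0.10 in the first and second comparisons. For EGLN3 the entry was SPTSSA, with 1875, 1409, 1881 and 1660 counts and log2 ratios of -0.03 and -0.55, beside 0.91 and -0.74 for EGLN3. For SLC16A3 it was CSNK1D, with 5314, 5093, 5130 and 6557 counts and ratios of 0.51 and -0.20, beside 0.49 and -0.43. BNIP3L overlaps PNMA2, with 1182, 886, 977 and 948 counts and ratios of 0.11 and -0.56, beside -0.57 and -0.53. ANKRD37 overlaps UFSP2, with 178, 194, 160 and 70 counts and ratios of -1.02 and -0.02, beside 0.02 and -0.11. The values of these 5 members are uncertain for this reason.

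The promoters of members called in the first or second comparison are shown because those members move most. Promoter sequences came from RefSeq on GRCh38.p14, with 250 bases before and 50 after each start, and matched 35 of the 40 symbols with 63 promoters; entries for BNIP3L, NDRG1, SLC16A1, SLC2A3 and VEGFA were missing. The core letters of the hypoxia response element, ACGTG or GCGTG, were searched on both strands, so that CACGT and CACGC are their reverse, and CACGTG holds both CACGT and ACGTG. A core stood in 43 of the 63 member promoters (68.3%), in 48.4% of all 35116 promoters and in 60.9% of the promoters of genes past the filter, whose median GC content was 68%, 58.7% and 65.0%. Several members have more than 1 promoter in the table. Each sequence below runs 5′ to 3′ on the gene's strand, with the core letters in capitals.

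CA9 has a single core, on the reverse strand, and its window lies at chr9:35673678-35673977 on the plus strand.
CA9: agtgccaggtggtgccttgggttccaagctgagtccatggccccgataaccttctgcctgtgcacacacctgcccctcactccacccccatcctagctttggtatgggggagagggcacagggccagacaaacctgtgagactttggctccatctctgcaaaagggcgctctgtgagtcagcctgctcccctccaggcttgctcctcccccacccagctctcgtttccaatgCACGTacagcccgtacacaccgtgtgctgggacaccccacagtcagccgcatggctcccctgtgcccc
HK2 has 2 windows, at chr2:74833877-74834176 with 3 cores and at chr2:74834920-74835219 with 6, both on the plus strand.
HK2 first start: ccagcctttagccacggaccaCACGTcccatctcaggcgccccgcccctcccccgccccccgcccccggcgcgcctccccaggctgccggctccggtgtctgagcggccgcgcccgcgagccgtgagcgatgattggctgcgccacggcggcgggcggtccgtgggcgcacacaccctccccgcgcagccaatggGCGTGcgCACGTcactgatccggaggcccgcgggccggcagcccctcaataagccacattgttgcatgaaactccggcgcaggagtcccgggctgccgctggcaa
HK2 second start: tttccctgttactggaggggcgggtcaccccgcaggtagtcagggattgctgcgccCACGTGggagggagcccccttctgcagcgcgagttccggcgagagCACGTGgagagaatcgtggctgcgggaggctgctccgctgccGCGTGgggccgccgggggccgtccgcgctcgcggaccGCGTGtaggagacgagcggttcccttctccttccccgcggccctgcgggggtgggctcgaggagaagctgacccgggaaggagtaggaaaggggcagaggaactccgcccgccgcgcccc
CA12 has 2 cores, at chr15:63381797-63382096 on the minus strand.
CA12: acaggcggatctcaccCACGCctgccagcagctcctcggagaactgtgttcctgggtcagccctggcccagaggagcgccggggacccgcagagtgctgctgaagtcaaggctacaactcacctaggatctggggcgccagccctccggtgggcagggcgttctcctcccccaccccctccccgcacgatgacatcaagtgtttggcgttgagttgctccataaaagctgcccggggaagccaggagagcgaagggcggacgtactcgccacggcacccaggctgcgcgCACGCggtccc
ALDOC has 5 cores, at chr17:28576846-28577145 on the minus strand.
ALDOC: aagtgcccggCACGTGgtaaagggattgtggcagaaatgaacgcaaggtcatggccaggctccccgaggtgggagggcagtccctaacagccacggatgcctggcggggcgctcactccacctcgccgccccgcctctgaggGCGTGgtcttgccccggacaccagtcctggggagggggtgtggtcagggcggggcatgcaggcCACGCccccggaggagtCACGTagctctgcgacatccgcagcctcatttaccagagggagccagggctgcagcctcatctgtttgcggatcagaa
A match is a description of letters only and shows no binding.

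Regulators of HIF outside the members were read from a list of 14 genes, of which 13 passed the filter. At 2-fold 0 were called higher and 1 lower in the library labelled overexpression, and 0 and 0 in shDCBLD2, with medians of 0.11 and -0.07. As given above, 6.39% of all genes were called higher and 5.29% lower in the first comparison, and 1.17% and 5.65% in the second, and these shares stand beside the counts of every list that follows. The one called was CUL2, the scaffold of the ubiquitin ligase that removes HIF1A, with 363, 556, 329 and 133 counts and log2 ratios of -1.14 (-1.46 to -0.86) and 0.47 (0.28 to 0.67). VHL, the subunit that recognizes HIF1A, had 0.78 (0.67 to 0.89) and -0.03 (-0.14 to 0.08). CITED2, which competes with HIF1A for its coactivators, had 266, 203, 311 and 533 counts, with 0.93 (0.73 to 1.14) and -0.53 (-0.80 to -0.26), and the first was 1.24, past 2-fold, with sc as control. The elongin ELOC, a partner of VHL, had -0.33 and 0.26, and the coactivator EP300 0.28 and -0.44. Both directions of EP300 turned with the other control library, to -0.80 (-0.93 to -0.67) and 0.64 (0.50 to 0.78), and the empty vector library lay at -1.08 (-1.22 to -0.94) against sc.

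A further list of 30 hypoxia response genes all passed the filter. In the library labelled overexpression 5 of the 30 were called higher and 0 lower, beside 6.39% and 5.29% of all genes, and in shDCBLD2 2 were called lower, beside 5.65%, with medians of -0.01 and 0.07. Of the 5, PPFIA4 had 14, 18, 18 and 35 counts and was below 1 CPM in each library but the one where it was called, so it passed the filter only through that library and its call was partly set by the filter. RAB20, a small GTPase, had 87, 43, 42 and 88 counts, high in sc and in the library labelled overexpression, with log2 ratios of 1.18 (0.67 to 1.79) and -1.12 (-1.72 to -0.61), and the empty vector against sc gave -0.93 (-1.53 to -0.41). With the other control library both calls of RAB20 ended, at 0.26 (-0.18 to 0.71) and -0.19 (-0.85 to 0.45). LOX, which crosslinks collagen, had 19, 25, 18 and 49 counts and a ratio of 1.49 (0.79 to 2.47) in the first comparison. The secreted hormone STC2 had 0.09 and 0.97, and with the other control library 0.77 and 0.29. At the low end, the transferrin receptor TFRC had -0.80 (-0.92 to -0.68) and 0.47 (0.40 to 0.55), the glycogen-targeting subunit PPP1R3C -0.76 and 0.09 (-0.15 to 0.33), and the cyclin CCNG2 -0.62 and -1.05. With sc as control, TFRC was -1.29, past 2-fold, and CCNG2 0.32, with an interval that reached 0. With the empty vector as control CCNG2 was -1.99 in shDCBLD2.

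Of 22 isoenzymes and transporters of glycolysis outside the members, 10 passed the filter. At 2-fold 0 were called either way in the library labelled overexpression, and 0 higher and 3 lower in shDCBLD2, with medians of 0.15 and -0.04. The glucose transporter SLC2A12 had 106, 45, 99 and 71 counts, with log2 ratios of -0.32 (-0.79 to 0.13) and -1.34 (-1.91 to -0.86). SLC2A4, the insulin-regulated transporter, had only 14, 5, 27 and 41 counts and passed the filter only through the library labelled overexpression, with 0.71 (0.02 to 1.51) and -1.30 (-3.45 to -0.07), or 1.65 and -2.24 with the other control library, and the other called lower in shDCBLD2 was the carrier SLC16A4 at -1.12. HKDC1, the hexokinase next to HK1 in level, had 0.46 and -0.84, the transporter SLC2A6 0.43 and 0.29, and BPGM, which makes 2,3-bisphosphoglycerate, -0.40 and 0.14 (-0.10 to 0.39). With the other control library SLC2A6 had 0.79 and -0.07 (-0.24 to 0.10), so its direction in shDCBLD2 rested on the control. TIGAR, a phosphatase that lowers fructose 2,6-bisphosphate, had 322, 454, 269 and 139 counts, with -0.79 (-1.11 to -0.50) and 0.35 (0.15 to 0.57).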

How the data were processed

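Poly(A) RNA of 4 A549 lines was measured, 1 library a condition. The authors deposited gene counts and FPKM values for each library, with no aligner, counter or strand setting given in the sources used here; the processing notes list mm9, a mouse build, which the human gene identifiers and coordinates of the table go against. The deposited FPKM equalled the counts scaled by library total and exonic length, to 2 decimals. Scaling used the TMM factors of edgeR 4.0.16 (R 4.3.3), computed over the 4 libraries. Log2 ratios used a prior count of 2, scaled to the mean size of the 2 libraries compared, with exact Clopper-Pearson 95% intervals (scipy 1.17.1). CPM carried exact Poisson intervals. Genes with a mean of at least 1 CPM were kept. The ratio was tested on simulated data. The members and lists were chosen with earlier results of these data known. Described in every library were members past 2-fold in any comparison, the 3 highest and 3 lowest in the comparisons with DCBLD2 lines, and HIF1A, SLC2A1, HK2, LDHA, PDK1, CA9, BNIP3 and VEGFA. From each other list the 2 highest and 2 lowest past the filter in those comparisons were chosen, not all of which are given, and promoters were shown for up to 6 members past 2-fold. Alternatives were DESeq2 1.42.0 size factors, library totals alone, prior counts of 0.5 and 5, no filter or a mean of at least 5 CPM, a 1.5-fold threshold and the other control library. A prior count scaled to the mean size of all 4 libraries was added after seeing the data, when counts of called genes differed slightly from an earlier analysis of the same files; the scaling already in use was kept as the main one.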

Additional observations from a re-analysis of the deposited data

How the results depend on the processing

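Counts of members past 2-fold were small and moved with the threshold, the filter and the control library. At 1.5-fold, 8 members were higher and 3 lower in the library labelled overexpression against the empty vector, 1 and 6 in shDCBLD2 against sc, and 3 and 2 between the controls. With a mean of at least 5 CPM, 36 members were kept, and 0 were at least 2-fold higher in the first comparison, 1 at least 2-fold lower in the second, and 0 higher and 0 lower between the controls. Of the 10835 genes kept, 339 were higher in the first comparison, 338 lower in the second, and 96 higher and 84 lower between the controls. Fewer genes entered by construction. A prior count of 0.5 gave 2 higher between the controls. With sc as control, the library labelled overexpression had 3 members at least 2-fold higher (HK2, ALDOC, NDRG1) and 1 lower (HIF1A), and the median log2 ratio of the hypoxia response members was 0.18 in place of -0.16 and that of the glycolysis members 0.09 in place of 0.19. Over all 13966 genes, that control gave 1125 calls higher and 1252 calls lower. With the empty vector as control, shDCBLD2 had 1 member at least 2-fold higher (VEGFA) and 3 lower (CA9, ALDOC, ADM), beside 312 and 1120 of the 13966 genes, CA12 was no longer past 2-fold, and the medians were 0.19 for the glycolysis and -0.17 for the hypoxia response members. DESeq2 size factors gave a glycolysis median of 0.11 in shDCBLD2 in place of 0.09. The median over all genes there was 0.03 in place of 0.01, so it rose as well. The cause was not tested. The control library moved most ratios of single genes: 55 of 78 left the counting interval with sc as control and 55 of 78 with the empty vector as control, and 7 and 9 of the 40 members changed sign. Library totals alone moved 36 of 234 and DESeq2 size factors 13 of 234, and prior counts of 0.5 and 5 moved 0. The prior count scaled to the mean size of the 4 libraries, tried after seeing the data, left all 234 of its single-gene ratios within the interval, and gave 897 genes at least 2-fold higher and 747 lower in the first comparison in place of 893 and 739. Without a filter, 1869 and 1002 genes were called there. No paired analysis was possible because each condition has 1 library. CA9, HK2, ALDOC and ANKRD37 are the members that depth limits most.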

Other observations

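Genes at the exits from glycolysis were read from further lists. All 7 genes of the pentose phosphate pathway, which makes NADPH and ribose from glucose 6-phosphate, passed the filter, and 0 were called at 2-fold in any of the 3 comparisons. The medians were -0.25 in the library labelled overexpression against the empty vector and -0.15 in shDCBLD2 against sc. The transketolase TKT had 75398, 56294, 92400 and 65230 counts in sc, shDCBLD2, the empty vector library and the library labelled overexpression, with log2 ratios of -0.35 (0.04 with sc as control) and -0.56, and the dehydrogenase PGD had -0.25 and -0.55. RPIA and RPE, which interconvert pentose phosphates, had -0.63 and 0.53, and -0.69 and 0.26. PGLS had 0.16 and -0.15, and the transaldolase TALDO1 0.14 and 0.15. With the other control library PGLS had 0.65 (0.56 to 0.74) and -0.64 (-0.73 to -0.55), each past 1.5-fold. Between the controls it was 0.49. In shDCBLD2 with the empty vector as control TKT was -0.95 and PGD -0.64, also past 1.5-fold. RPIA and RPE kept their directions with the other control library.

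All 14 genes of pyruvate entry into the mitochondria passed the filter, with medians of -0.11 and -0.18, and 1 called higher in the library labelled overexpression and 1 lower in shDCBLD2, beside 6.39% and 5.65% of all genes. The first was MPC1, a subunit of the mitochondrial pyruvate carrier, with 39, 31, 32 and 65 counts and log2 ratios of 1.13 (0.54 to 1.83) and -0.45 (-1.20 to 0.25). With sc as control its first value was 0.94 (0.39 to 1.59), under 2-fold. The second was the pyruvate dehydrogenase kinase PDK4, with 1649, 640, 893 and 1207 counts and 0.59 (0.46 to 0.71) and -1.50 (-1.64 to -1.37), and -0.79 (-0.91 to -0.67) between the controls. With sc as control PDK4 was -0.20 (-0.31 to -0.10) in the library labelled overexpression, the opposite direction, and with the empty vector as control it was -0.71 (-0.86 to -0.57) in shDCBLD2, under 2-fold. Its relative PDK2 had 0.45 and -0.87. Of the subunits of the dehydrogenase complex, 0 were called at 2-fold. Their values were -0.78 and -0.08 for PDHX, -0.77 and -0.37 for DLD, -0.42 and 0.15 for DLAT, -0.18 and 0.09 for PDHA1 and -0.41 and -0.43 for PDHB. The phosphatase PDP1 had -0.25 (-0.55 to 0.04) and 0.16 (-0.14 to 0.46). Both directions of PDP1 turned with the other control library, to 0.23 and -0.33, and the empty vector library lay at 0.49 against sc.

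Of 14 genes of gluconeogenesis and glycogen, 9 passed the filter, with medians of 0.07 and -0.13, and 1 was called lower in the library labelled overexpression, beside 5.29% of all genes. This was UGP2, which makes UDP-glucose, with 1058, 1359, 1159 and 498 counts and log2 ratios of -1.06 (-1.22 to -0.91) and 0.22 (0.10 to 0.34). With sc as control the first was -0.84, which ended the call, and with the empty vector as control the interval of the second spanned 0 (-0.12 to 0.11). The glycogen synthase GYS1 had 0.55 and -0.19, the phosphatase G6PC3 0.31 and -0.30, PGM2 -0.65 and 0.30, the phosphorylase PYGL -0.21 and 0.24, and the mitochondrial PCK2 0.02 and -0.87. In shDCBLD2 with the empty vector as control GYS1 was 0.10, with an interval that reached 0, and PCK2 -1.22 (-1.34 to -1.11), past 2-fold lower.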
